A study of Arabidopsis thaliana with 3 samples.

Results

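Long unmodified poly(A) tails were followed across the mRNAs of Arabidopsis thaliana flowers. A tail was unmodified when no nucleotide followed the As, and long when it had 50 As or more. The members were chosen by these 2 measured values, the number of added nucleotides and the poly(A) length, so the share of long tails is given as a description wherever all libraries enter it. Of 455570 rows, each one read given to one gene, 411153 had an unmodified tail and 26082 of these were long. An mRNA was described when the 3 libraries together gave it 50 or more unmodified rows, which 1320 of 16577 loci reached.

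The plants were wild type of the Col-0 accession, grown on soil under cycles of 16 h light at 21 °C and 8 h darkness at 18 °C. Total RNA of flowers, which the study's methods call flower buds, was used for 3 biological replicates of 1 group, with no mutant or treatment. Whole flowers hold many cell types, so fewer cells of a type and less RNA per cell cannot be told apart in the number of rows of an mRNA. Transcripts of all 7 floral identity genes looked up were found, from 8 unmodified rows for AG to 145 for PI and 187 for AP1.

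A poly(A) tail is added to most eukaryotic mRNAs in the nucleus and is bound in the cytosol by poly(A)-binding proteins. Deadenylases then shorten it, and a short tail can be extended by uridines, which in Arabidopsis are added mainly by the uridylyltransferase URT1. TAIL-seq sequences RNA from an adapter joined to its 3′ end, so that read 2 covers the tail, while read 1 identifies the gene. The tails measured were 6 to 91 As long. Tails piled up at 91 As, the longest length recorded, and one recorded there may be longer.

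Replicate 1 gave 213510 unmodified rows, replicate 2 gave 102510 and replicate 3 gave 95133. The names of the reads place replicate 1 on one sequencing run and replicates 2 and 3 on another. The mRNAs that the study also followed one by one by 3′RACE-seq, with HAM1 set apart beside them for its uneven number of rows (23 mRNAs in all, called the 3′RACE-seq mRNAs here), took 1.67% of the unmodified rows in replicate 1, 30.1% in replicate 2 and 23.8% in replicate 3. They were therefore left out of the tests between mRNAs, and their part in the difference between libraries was measured by removal.

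Long tails were a minority in every library and were 3.28 to 3.93 times as frequent in replicate 1 as in the others. Of the unmodified tails of replicate 1, 9.71% were long, with a 95% Wilson interval of 9.58 to 9.84%. Replicate 2 had 2.47% (interval 2.38 to 2.57%), and replicate 3 had 2.96% (interval 2.86 to 3.07%). These intervals cover counting error only. The mean was 5.05% ± 4.04 (SD, n = 3), and the intervals of the libraries did not overlap. Replicate and sequencing run cannot be told apart in this difference. Without the 3′RACE-seq mRNAs the shares were 9.46%, 2.35% and 2.97%. When each of the 543 mRNAs with 20 or more unmodified rows in every library counted once, they were 9.18%, 2.33% and 2.59%, so the difference between libraries was as large within the same mRNAs.

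The whole distribution of replicate 1 lay at longer tails. The median unmodified tail had 26, 23 and 22 As in replicates 1, 2 and 3, and the upper quartile 37, 29 and 29 As. Tails of 40 to 49 As, just short of the limit, were 11.8%, 5.77% and 5.46% of the libraries, and those of 50 to 59 As were 4.66%, 1.54% and 1.60%. Among the long tails the median was 60, 56 and 58 As. Tails at 91 As made up 14.5% of the long tails of replicate 1, 5.21% of those of replicate 2 and 8.91% of those of replicate 3. The limit of 50 As fell on a slope and not in a gap. Replicate 1 had 1643 tails of 49 As and 1521 of 50 As, replicate 2 had 348 and 296, and replicate 3 had 381 and 263.

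**Figure D1:**
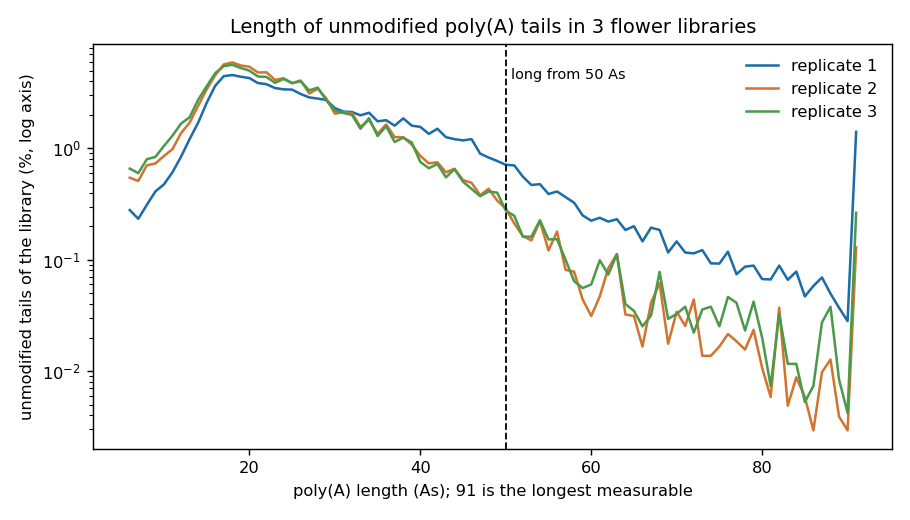
Share of unmodified tails (%, log axis) at each poly(A) length in replicates 1, 2 and 3, with the limit of 50 As as a dashed line. Replicates 2 and 3 lie together and replicate 1 lies above them at the long end, with a last point at 91 As, the longest length recorded.

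Most mRNAs kept few long tails. Over the 1320 mRNAs the median pooled share was 5.08%, with quartiles of 3.08 and 8.22%. Only 33 mRNAs had 20% or more and 18 had 25% or more, while 184 were under 2% and 36 had no long tail. At the lower limit of depth, the 23 mRNAs with exactly 50 rows had a median share of 4.0% and the 26 with 49 rows one of 6.12%, with overlapping quartiles (2.0 to 7.0% and 2.55 to 8.16%). In replicates 2 and 3, which had fewer rows and fewer long tails, shares were often 0. Of the 543 mRNAs with 20 or more rows in each library, 268 had no long tail in replicate 2, 237 in replicate 3 and 11 in replicate 1.

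The rank of an mRNA by its long share was alike only in part between libraries. Across the 543 mRNAs, Spearman's rho of replicate 1 with replicate 2 was 0.32 and with replicate 3 also 0.32, and replicates 2 and 3 gave 0.33. These are correlations across mRNAs, which share library, depth and reference, and carry no test. With 100 or more rows in each library, which 81 mRNAs reached, rho was 0.67, 0.53 and 0.48. Pearson's r over the 543 mRNAs was 0.77, 0.77 and 0.90 and fell to 0.35, 0.37 and 0.43 without the 6 of them described next.

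The mRNAs with the highest long shares in all libraries had a run of As written in the genome. The genome sequence was searched for runs of 30 or more As on the strand of a gene, inside the gene or within 500 nt of it, after the values had been seen. Of the 1320 mRNAs, 8 had such a run, and 6 of these were 6 of the 8 with the highest pooled shares. Their pooled shares were 39.5 to 91.9%, against a median of 5.08% over the 1312 mRNAs without a run. These 6 are TPPI, AT5G66090, LACS3, PUX3, AT3G27040 and AT3G52700, and the remaining 2 are PGY1 and AT3G23600. The runs are shown because the tail of a read is itself a run of As. Each is given from 5′ to 3′ on the strand of the mRNA, in the RefSeq copy of TAIR10.1, with the run in capitals and its neighbours in lower case. For TPPI and AT5G66090, whose runs lie in annotated exons outside the coding part, only the first bases of the run are shown.
TPPI: ttgtatttttgtAAAAAAAAAAAAAAAAAA
AT5G66090: cggccacaaattAAAAAAAAAAAAAAAAAA
LACS3: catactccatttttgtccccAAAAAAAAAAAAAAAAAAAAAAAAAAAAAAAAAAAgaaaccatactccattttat
PUX3: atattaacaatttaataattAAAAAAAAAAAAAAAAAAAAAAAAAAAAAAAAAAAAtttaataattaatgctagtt
AT3G27040: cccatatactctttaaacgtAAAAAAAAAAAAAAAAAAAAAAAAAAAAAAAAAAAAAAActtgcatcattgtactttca
AT3G52700: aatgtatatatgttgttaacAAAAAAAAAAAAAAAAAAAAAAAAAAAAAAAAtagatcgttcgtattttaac
PGY1: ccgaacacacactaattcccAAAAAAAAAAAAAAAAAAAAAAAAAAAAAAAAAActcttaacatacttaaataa

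The runs had different places in the gene models. The run of TPPI, which encodes a trehalose-6-phosphate phosphatase, has 41 As (chr5:3160446-3160486, plus strand) and lies in an exon of the gene. The run of AT5G66090 has 40 As (chr5:26427169-26427208, plus strand), begins in the last bases of the annotated gene and reaches into the start of the next gene, AT5G66100, on the same strand. The run of LACS3, a long-chain acyl-CoA synthetase that activates fatty acids, has 35 As (chr1:23918902-23918936, minus strand) and lies in an intron. The run of AT3G52700, an uncharacterized protein, has 32 As (chr3:19538361-19538392, minus strand) and lies in its first annotated coding exon. The runs of PUX3, a UBX-domain protein, and AT3G27040, a MATH-domain protein, lie outside the annotated genes, before their 5′ ends. That of PUX3 has 36 As (chr4:11732812-11732847, minus strand) at 138 nt from the gene, and that of AT3G27040 has 39 As (chr3:9976778-9976816, minus strand) at 388 nt.

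The shares of these 6 mRNAs were high in each library. For TPPI 133 of 144 rows were long in replicate 1 (92.4%), 35 of 35 in replicate 2 (100%) and 60 of 69 in replicate 3 (87.0%). For AT5G66090 the counts were 302 of 349 (86.5%), 100 of 116 (86.2%) and 126 of 155 (81.3%). These 2 loci are not independent, since all 248 unmodified rows of TPPI came from reads also given to AT5G66090. For LACS3 they were 342 of 597 (57.3%), 91 of 187 (48.7%) and 104 of 219 (47.5%). PUX3 had 631 of 1162 (54.3%), 187 of 462 (40.5%) and 276 of 567 (48.7%). For these 4 loci the lowest library was therefore above 40%, while the library shares ran from 2.47 to 9.71%. AT3G27040 had 63 of 133 (47.4%), 24 of 55 (43.6%) and 21 of 56 (37.5%). AT3G52700 had 114 of 258 (44.2%), 38 of 111 (34.2%) and 38 of 112 (33.9%). The highest library was 1.06 to 1.34 times the lowest at these 6 loci, and 3.93 times the lowest over all unmodified rows. A share cannot pass 100%, so shares this high left no room for a ratio of 3.93. These ratios are therefore not comparable.

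The short end of their tail lengths was missing as well. Over all other loci without the 3′RACE-seq mRNAs, 67.1% of unmodified tails were under 30 As and the 10th percentile was 16 As. At the 6 loci 2.89 to 5.20% of tails were under 30 As, and the 10th percentile was 54 As for TPPI, 47 for AT5G66090, 37 for LACS3, 36 for PUX3, 36 for AT3G27040 and 32 for AT3G52700. In the last 4 the 10th percentile lay within 3 As of the length of the genomic run. Tails at 91 As were 56.5% of the unmodified rows of TPPI, 29.4% of those of AT5G66090 and 2.46 to 5.98% of those of the others, against 0.790% over all other loci. All loci with such a run, also those under 50 rows, held 1.22% of the unmodified rows, 10.4% of the long ones and 15.9% of those at 91 As. The position of read 1 is not in the table, and whether the As of these reads were copied from the genome was not tested.

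A run of As did not always go with a high share. PGY1, which encodes a ribosomal protein of the large subunit, has a run of 34 As at 55 nt before the gene (chr2:11764990-11765023, minus strand), and had 2 long tails in 87 rows (2.30%). AT3G23600 has a run of 30 As that overlaps the start of its model and the end of the gene before it, and had none in 58 rows, which allows a share of up to 5.17%. Runs of 25 to 29 As were near 3 further mRNAs, with 4.88, 8.40 and 23.2% long tails, the last being NOP56, a protein of ribosomal RNA processing complexes. Runs on the opposite strand were near 4 mRNAs, with shares of 0.769 to 17.2%.

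**Figure D2:**
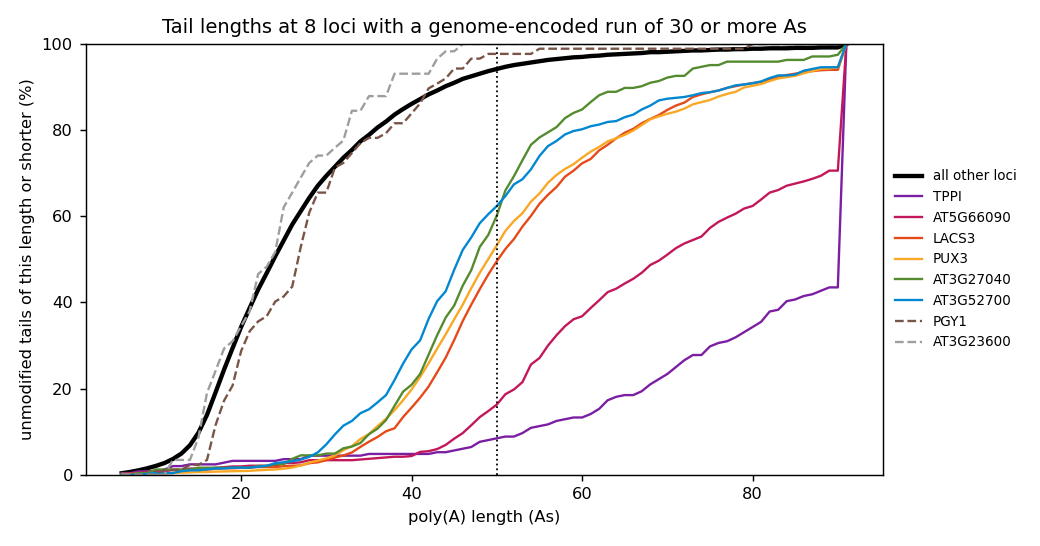
Cumulative share of unmodified tails (%) up to each poly(A) length at the 8 loci with a genome-encoded run of 30 or more As, pooled over 3 libraries, and over all other loci without the 3′RACE-seq mRNAs (black). The 6 solid curves stand at 5.20% or less below 30 As, while PGY1 and AT3G23600 (dashed) run with the black curve.

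Which mRNAs differed from the others was tested on libraries that did not choose them. The side of an mRNA was read from replicate 1 alone, as above or below where its 95% Wilson interval excluded the share of the other mRNAs, and was then tested in replicates 2 and 3 by the Cochran-Mantel-Haenszel test, two-sided and stratified by library. The test treats rows as independent, and its p-values cover counting error and not the spread between flowers. They come from a chi-square approximation, which is coarse where few long tails are counted, and no exact test was run. Calls that rest on few long tails, as for Tic20-I, FAD3, XYL4, YCF37 and GGP3, are therefore uncertain. Enough rows for it were reached by 1012 mRNAs, of which 118 (11.7%) lay above in replicate 1 and 150 (14.8%) below. In replicates 2 and 3, 21 of the 1012 (2.08%) were called above and 6 (0.593%) below, at an adjusted p under 0.05 (Benjamini-Hochberg). Of the 118 on the upper side, 13 (11%) were called above and none below. Of the 150 on the lower side, 5 (3.33%) were called below and 1 above. An unadjusted p under 0.05 was reached by 21 of the 118 on the upper side, 27 of the 150 on the lower side and 34 of the 744 between. Without the loci with a run of As the calls were 20 above and 3 below. In replicate 3 alone, without replicate 2, they were 11 above and 2 below, and in replicate 2 alone, without replicate 3, 16 above and 2 below. The reverse order, with the side from replicates 2 and 3 and the test in the deeper replicate 1, called 72 above (7.11%) and 56 below (5.53%). In that order 20 of the 48 mRNAs on the upper side were called above and 22 of the 55 on the lower side below. Called in both orders were 10 mRNAs above and 4 below.

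**Figure D3:**
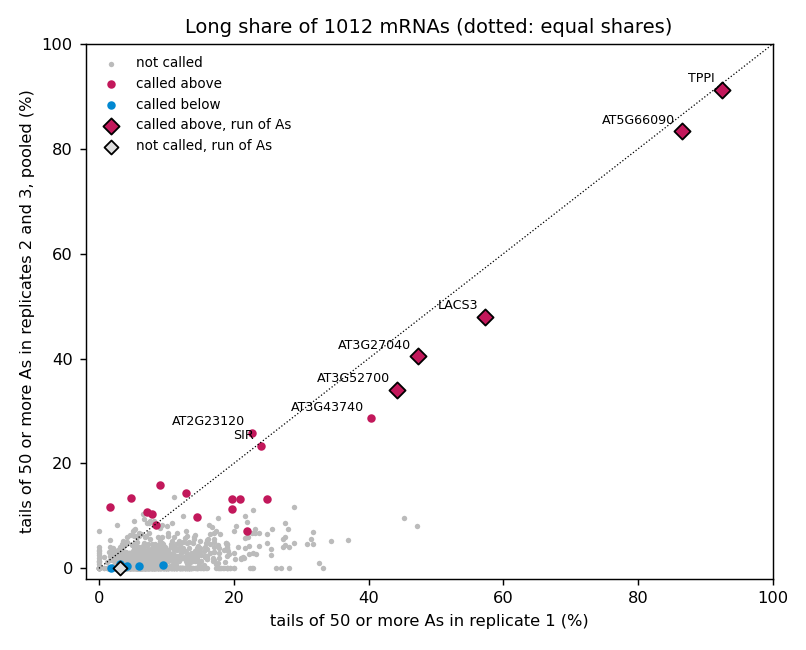
Long share (%) of the 1012 tested mRNAs in replicate 1 (x axis) and in replicates 2 and 3 pooled (y axis). Diamonds mark loci with a genome-encoded run of As, coloured points the calls in replicates 2 and 3, and the dotted line equal shares; 5 diamonds and a few called mRNAs lie near the line, and most mRNAs far below it.

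Loci with a run of As were 5 of the 13 mRNAs above in replicate 1 and again in replicates 2 and 3. PGY1 was tested and not called, PUX3 was left out with the 3′RACE-seq mRNAs, and AT3G23600 had too few rows. The odds of a long tail in replicates 2 and 3 against the other mRNAs were 355 for TPPI, 189 for AT5G66090, 35.2 for LACS3, 25.1 for AT3G27040 and 19.3 for AT3G52700. The largest of the 2 adjusted p that could be represented was 2.86e-130 (Cochran-Mantel-Haenszel). The 3 others had a chi-square of 3009 or more.

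Without a run of As, 8 mRNAs were above in both parts of the data. The late embryogenesis abundant protein AT2G23120, of a class known from drying seeds, had 47 long tails of 207 (22.7%) in replicate 1, 5 of 38 (13.2%) in replicate 2 and 17 of 47 (36.2%) in replicate 3. Its odds were 12.9 with an adjusted p of 1.04e-35 (Cochran-Mantel-Haenszel). SIR, the plastid sulfite reductase of sulfur assimilation, had 20 of 83 (24.1%), 4 of 16 (25%) and 3 of 14 (21.4%), with odds of 11.2 and an adjusted p of 8.94e-09 (Cochran-Mantel-Haenszel). For SIR the 3 libraries thus gave nearly the same share, but those of replicates 2 and 3 rest on 16 and 14 rows. At that depth only a high share could be called there, so this likeness carries no test. The leucine-rich repeat protein AT3G43740 had 21 of 52 (40.4%), 2 of 10 (20%) and 6 of 18 (33.3%), and 40.7% of its rows came from reads also given to other genes.

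The other 5 of these 8 had lower shares. LTP6, a lipid transfer protein, had 102 long tails of 517 (19.7%) in replicate 1, 5 of 55 (9.09%) in replicate 2 and 10 of 77 (13.0%) in replicate 3, with odds of 4.62 and an adjusted p of 4.04e-07 (Cochran-Mantel-Haenszel). GRP19, a glycine-rich oleosin-like protein of the pollen coat, had 9 of 43 (20.9%), 5 of 47 (10.6%) and 7 of 44 (15.9%). FAD3, the desaturase that makes linolenic acid in the endoplasmic reticulum, had 13 of 66 (19.7%), 2 of 18 (11.1%) and 3 of 20 (15%). In these 3 every library was above its own share of 9.71, 2.47 or 2.96%. Tic20-I, of the plastid import machinery, and TRX-M4, a plastid thioredoxin, were called with adjusted p of 0.0188 and 0.0140 (Cochran-Mantel-Haenszel). For Tic20-I these were 2 long tails of 20 in replicate 2 and 3 of 18 in replicate 3. At such counts, as for FAD3, the p-value is approximate. The call of TRX-M4 rested on reads shared with other genes, and without these its odds were 0.980.

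A further 8 mRNAs were called above in replicates 2 and 3 but not above in replicate 1, with pooled shares of 5.88 to 13.6%. The thylakoid phosphoprotein AT3G47070 had 5 of 63 (7.94%), 8 of 96 (8.33%) and 12 of 96 (12.5%), and PRXR1, a peroxidase, had 4 of 44 (9.09%), 4 of 29 (13.8%) and 5 of 28 (17.9%). Neither stood out in replicate 1, and there the odds of PRXR1 and AT3G47070 against the other mRNAs were 0.957 and 0.825. The others were MEE59, AT2G03850, XYL4, a xylosidase of the cell wall, AT3G60750, a transketolase, YCF37, of photosystem I assembly, and GGP3. GGP3 was below the others in replicate 1, with 1 long tail of 59, and its call rested on 5 of 28 rows in replicate 2, against 0 of 15 in replicate 3.

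By the rule fixed for naming, 12 mRNAs had the highest lower bounds of the long share in replicate 1 among the 782 with enough rows and few shared reads. LACS3, AT3G27040 and AT3G52700 led this list. The other 9 had 27.3 to 47.2% long tails in replicate 1 and at most 15.4% in replicates 2 and 3, and none was called there. AT5G46430, a ribosomal protein L32e, had 17 of 36 (47.2%), 3 of 41 (7.32%) and 2 of 21 (9.52%). AT4G24380, annotated as a dihydrofolate reductase, had 48 of 130 (36.9%), 1 of 42 (2.38%) and 3 of 32 (9.38%). The replicate 1 values of these mRNAs had been picked for being high, so their distance from the other replicates carries no test. The nearest to a call was AT5G19760, a mitochondrial carrier, with 61 of 221 (27.6%), 7 of 130 (5.38%) and 9 of 140 (6.43%), odds of 2.30 and an adjusted p of 0.0571 (Cochran-Mantel-Haenszel). It was called above, with an adjusted p of 0.00584 in the same test, when the loci with a run of As were left out.

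Of the others, GOX2, a glycolate oxidase of photorespiration, had 33 long tails of 101 (32.7%) in replicate 1, 0 of 53 in replicate 2 and 1 of 52 (1.92%) in replicate 3. GOX1, a glycolate oxidase encoded by a similar neighbouring gene, had 41 of 133 (30.8%), 2 of 13 (15.4%) and 1 of 53 (1.89%). How reads were divided between these 2 similar genes is uncertain. AT1G11860, the T-protein of glycine cleavage, had 16 of 51 (31.4%), 2 of 38 (5.26%) and 3 of 51 (5.88%). The remaining 3 were CYT1, which makes GDP-mannose, PIP2E, a water channel of the plasma membrane, and the pectate lyase AT3G01270, with 2.70 to 5.26%, 3.33 to 10.7% and 0 to 14.3% long tails, respectively, in replicates 2 and 3.

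**Figure D4:**
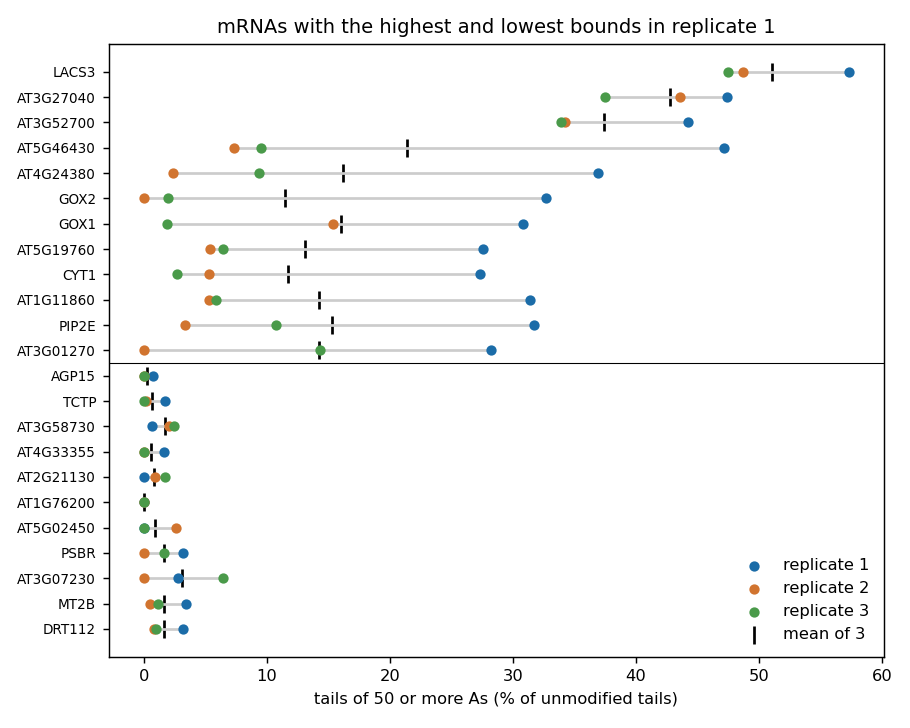
Long share (% of unmodified tails) in each replicate (points) with the mean of 3 (tick) for mRNAs with the highest lower bounds (upper block) and the lowest upper bounds (lower block) in replicate 1. Only the first 3 keep shares above 30% in all replicates, and those of the lower block stay at or under 6.45%.

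The mRNAs called below had few long tails in replicates 2 and 3. All had many rows, as depth limited the detection of low shares there. TCTP, the translationally controlled tumor protein, had 18 long tails of 1051 (1.71%) in replicate 1, 1 of 673 (0.149%) in replicate 2 and 0 of 454 in replicate 3. Its odds in replicates 2 and 3 were 0.0330 with an adjusted p of 1.25e-05 (Cochran-Mantel-Haenszel), and it was below in all libraries. DRT112, a plastocyanin that carries electrons between the photosystems, had 16 of 505 (3.17%), 5 of 652 (0.767%) and 5 of 505 (0.990%), with odds of 0.322 and an adjusted p of 0.0125 (Cochran-Mantel-Haenszel). THI1, which makes the thiazole of thiamine, had 30 of 500 (6.0%), 3 of 642 (0.467%) and 2 of 447 (0.447%). Both of the ribosomal proteins called below, AT5G18380 and AT4G15000, had almost no long tails in replicates 2 and 3. AT5G18380 had 28 of 665 (4.21%) in replicate 1, 4 of 476 in replicate 2 and 0 of 345 in replicate 3. Of its rows, 34.4% came from reads also given to other genes. AT4G15000 had 25 of 666 (3.75%), 1 of 267 and 0 of 242. Without the loci with a run of As in the reference, TCTP, THI1 and VSP1 were called below, and DRT112 and these 2 were not.

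VSP1, a vegetative storage protein, stood in another place in replicate 1 than in replicates 2 and 3. It had 69 long tails of 727 (9.49%) in replicate 1, 13 of 2075 (0.627%) in replicate 2 and 8 of 1481 (0.540%) in replicate 3. All mRNAs but the 3′RACE-seq ones together had 9.46%, 2.35% and 2.97%. VSP1 was thus level with the others in replicate 1 and below them in replicates 2 and 3, with odds of 0.217 and an adjusted p of 3.88e-12 (Cochran-Mantel-Haenszel).

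Other mRNAs with the lowest upper bounds in replicate 1, of which 9 are given here, were not called in replicates 2 and 3. AGP15, an arabinogalactan protein of the cell wall, had 2 of 287 (0.697%), 0 of 20 and 0 of 32. MT2B, a metallothionein that binds metal ions, had 23 of 680 (3.38%), 1 of 215 (0.465%) and 4 of 363 (1.10%), with an adjusted p of 0.200 (Cochran-Mantel-Haenszel). PSBR, of photosystem II, had 18 of 572 (3.15%), 0 of 184 and 3 of 185 (1.62%). These 3 shares lay under those of all mRNAs in every library, and the difference in replicates 2 and 3 did not pass the test. In replicate 1 the 3 had been picked for being low. The 0 of 20 and 0 of 32 rows of AGP15 are too few to place it under the others. The others of the 9 were AT5G02450 of the ribosome, AT3G58730 of the vacuolar proton pump, the lipid-transfer family protein AT4G33355, the cyclophilin AT2G21130, AT1G76200 and AT3G07230. AT3G07230 was not low throughout, with 10 of 364 (2.75%) in replicate 1, 0 of 26 in replicate 2, 2 of 31 (6.45%) in replicate 3 and odds of 1.32 in the last 2. AT1G76200, a subunit of respiratory complex I, was the deepest mRNA with no long tail, 0 of 136 rows, which allows a share of up to 2.21%.

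Product classes differed little in their long share. Of the 15 classes with 8 or more measured mRNAs, medians ran from 3.80% to 7.82%, beside 5.08% for all. These shares describe the pooled libraries and carry no test of a class. The side in replicate 1 also depended on depth. Median pooled rows were 270 for mRNAs on the lower side, 138 on the upper side and 108 between. The backgrounds given below are not matched for depth, so an excess on the lower side may reflect the depth of a class. The ribosomal proteins of the cytosolic list, 185 mRNAs, had a median of 4.27% with quartiles of 2.87 and 6.0%. Of 164 tested, none was called above (background 2.08%) and 2 below (background 0.593%) in replicates 2 and 3, and in replicate 1 34 (20.7%) lay on the lower side (background 14.8%) and 10 (6.10%) on the upper (background 11.7%). As a class they had 7.18%, 0.878% and 1.08% long tails in replicates 1, 2 and 3, each under its library. Members ranged from AT3G53870, with 0 of 59 rows, to AT5G46430, with 22.4%. The list was matched by product name, so not every member need be a cytosolic ribosomal protein. For example, eEF-1Bb1 is also in the list of translation factors.

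The 26 histone mRNAs had a median of 4.24%, and of 24 tested none was above in replicate 1 (background 11.7%) and 5, or 20.8%, were below (background 14.8%). HTB4, an H2B histone, had 6 long tails of 231 (2.60%), 0 of 116 and 0 of 123. The highest histone was HTA7 with 10.5% of 124 rows. The 13 arabinogalactan and extensin mRNAs had a median of 3.80%, the lowest of these classes, with pooled shares of 6.06%, 0.188% and 0.579% in replicates 1, 2 and 3. Respiratory chain and ATP synthase subunits, 34 mRNAs, had 4.35%, with 7 of 27 tested (25.9%) on the lower side in replicate 1 (background 14.8%) and 1 (3.70%) on the upper (background 11.7%). This list, matched by product name, also holds AT3G58730 of the vacuolar proton pump, which is 1 of the 7. Neither histones nor the other 2 classes had a call in replicates 2 and 3.

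The pooled medians of classes linked to pollen walls, lipid transfer and water transport lay above that of all mRNAs. For the pollen wall class this rested on replicate 1. The 18 pollen wall and pectin enzymes had a median of 7.82%, and 5 of 14 tested (35.7%) lay on the upper side in replicate 1 (background 11.7%) and 2 (14.3%) on the lower (background 14.8%). The class had 11.2% in replicate 1, 0.723% in replicate 2 and 1.53% in replicate 3, and without replicate 1 its median differed from that of all mRNAs by -0.959 percentage points. PGA4, a polygalacturonase that cuts pectin, had 30 long tails of 132 (22.7%) in replicate 1 and none in 14 and 7 rows of the others. The 19 lipid transfer proteins and oleosins had a median of 6.54%, with LTP6 called above, and class shares of 11.2%, 1.76% and 2.99% in replicates 1, 2 and 3. GRP19, oleosin-like and also called above, is not in this list. The 11 aquaporins had a median of 6.72%, no call, and class shares of 10.1%, 1.54% and 2.45%. Without replicate 1 the medians of these 2 classes stayed above that of all mRNAs. The differences were 0.199 percentage points for 8 lipid transfer and oleosin mRNAs and 1.16 for 6 aquaporins. In replicates 2 and 3, where all unmodified rows gave 2.47 and 2.96%, only the 2.99% of lipid transfer proteins was not under its library. From 60 As the aquaporin median differed from that of all by -0.151 percentage points. DELTA-TIP, a water channel of the vacuole, had the lowest aquaporin share, 1 of 121 rows (0.826%).

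The other 8 of the 15 classes had medians of 3.95 to 5.26%. The 39 photosystem and antenna mRNAs had 4.92%, from PSAD-1 with 0 of 124 rows to PSBQA with 14.5%, and the 12 of the Calvin cycle 4.71%, from FBA2 with 0 of 54 to GAPA-2 with 11.8%. Translation factors had 5.26%, actins and tubulins 5.25%, heat shock proteins and chaperones 4.49%, RNA-binding proteins and helicases 4.48%, transcription factors 4.28% and proteasome subunits 3.95%. No mRNA listed in these 8 classes was called in replicates 2 and 3. AT3G60750, a transketolase, and YCF37, of photosystem I assembly, were called above but are not in these lists, which match product names. Without the loci with a run of As LHCB4.1, an antenna protein, was called above with an adjusted p of 0.00942 (Cochran-Mantel-Haenszel). Classes with under 8 measured mRNAs were metallothioneins (3, median 2.44%), jasmonate and storage proteins (4, 3.12%), protein kinases (6, 2.21%), P450 enzymes (2, 5.92%), E3 ligases (3, 13.7%) and acyl-CoA synthetases with fatty acid elongases (3, 9.76%). Among them LACS3 was called above and VSP1 below.

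**Figure D5:**
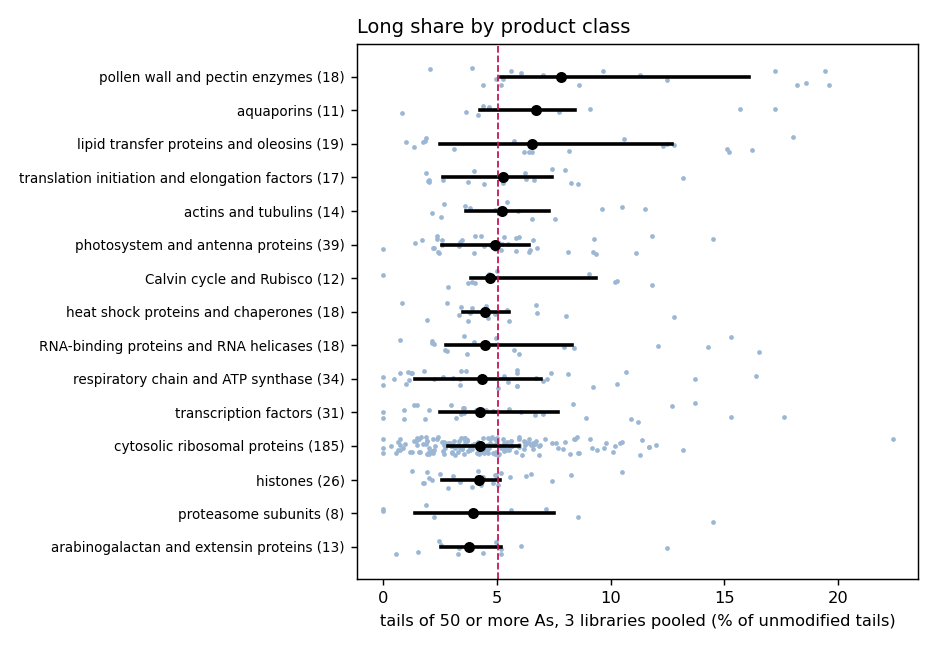
Pooled long share (%) of each mRNA (small points) in 15 product classes, with the median (large point) and quartiles (bar) and the number of mRNAs in parentheses. The dashed line is the median of all 1320 mRNAs, 5.08%, and class medians run from 3.80 to 7.82%.

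The 3′RACE-seq mRNAs differed widely among themselves. Apart from PUX3, 18 of them had 50 or more rows, with pooled shares from 0 for PSAD-1 to 16.3% for AT2G26110. Pooled shares are not comparable here, since the libraries gave these mRNAs unequal numbers of rows. PSAD-1 had 6 rows in replicate 1, 44 in replicate 2 and 74 in replicate 3, and AT2G26110 had 52, 14 and 20. CRD1, an enzyme of chlorophyll synthesis and the deepest of them, had 32 of 202 long tails (15.8%) in replicate 1, 440 of 14327 (3.07%) in replicate 2 and 178 of 7847 (2.27%) in replicate 3. RCI2A, a small membrane protein induced by cold, had 5 of 36 (13.9%), 22 of 8404 (0.262%) and 37 of 9070 (0.408%). CRD1 was thus close to the share of all unmodified rows in replicates 2 and 3, and RCI2A far under it. ERD15, a protein induced by drying, had 20.8%, 5.15% and 5.86% and was above that share in each library.

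Long tails were rarely uridylated. This comparison counted each read once and took all tails, with or without added nucleotides. In replicate 1, 182 of 19954 long tails (0.912%) carried added nucleotides classed as containing U, against 8.05% of the shorter ones. In replicate 2 these values were 0.899% and 10.1%, and in replicate 3 1.05% and 11.9%. Long minus shorter tails came to -9.07 ± 1.85 percentage points (SD, n = 3), with the same sign in 3 of 3 libraries and odds of 0.0985 and a chi-square of 1841 (Cochran-Mantel-Haenszel). With 3 libraries an exact sign-flip test cannot go below p = 0.25. The 6 loci with a run of As and a high share had 0.207 to 1.98% uridylated rows, near the value of long tails in general.

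Between mRNAs the long share did not order uridylation in one direction. In replicates 2 and 3, the mRNAs above in replicate 1 had a median uridylation of 6.86% (118 mRNAs, quartiles 3.01 and 10.8%), those between 8.07% (744 mRNAs, 4.88 and 12.5%) and those below 6.31% (150 mRNAs, 4.13 and 10.1%). The quartiles of the 3 groups overlapped. Without the loci with a run the upper group had 6.98%.

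Length was weakly related to the long share. Across the 1319 annotated mRNAs Spearman's rho with the pooled share was 0.15 for coding length, 0.12 for mRNA length, 0.10 for intron number and -0.02 for the length of the 3′ UTR, as descriptions across mRNAs. Within replicates 1, 2 and 3, over 523 mRNAs, rho was 0.12, 0.05 and 0.08 for coding length and 0.11, 0.02 and 0.05 for mRNA length, so that the relation was weaker still in replicates 2 and 3. Without the loci with a run and the 3′RACE-seq mRNAs, mRNAs of over 2000 nt had 9.56%, 2.07% and 2.52% long tails in replicates 1, 2 and 3, the highest of 5 length classes in each. Those of 750 to 1000 nt had 7.43%, 1.20% and 1.72%, the lowest in each. The shortest class, up to 750 nt, had 7.80%, 1.49% and 1.99%, so the order did not follow length throughout. Its Wilson intervals overlapped those of the longest class in replicate 2 (1.19 to 1.87% against 1.69 to 2.54%) and replicate 3 (1.63 to 2.43% against 2.11 to 3.00%), and not in replicate 1 (7.41 to 8.20% against 9.09 to 10.1%). These intervals pool the rows of all mRNAs of a class and leave out the spread between mRNAs, so they carry no test of length.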

How the data were processed

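TAIL-seq of Col-0 flowers was used. The authors removed ribosomal RNA, ligated a tagged 3′ adapter, digested with RNase T1, collapsed reads by random tag, aligned read 1 to TAIR10 (HISAT2 2.1.0 and bedtools 2.17.5 in the submitters' processing notes) and kept cytosolic mRNAs. The authors deposited, for each read and gene, the length in nucleotides of the tail and of any added nucleotides, with no normalization or pooling. Of 455742 rows, 172 repeats were dropped. Names, positions and sequences came from RefSeq TAIR10.1 (1319 of 1320 mRNAs matched). Product classes are matches to product names and can hold other proteins or miss members. Long share was computed per library and mRNA with 95% Wilson intervals and floors of 3 counts, which cover counting error only. mRNAs with 50 pooled rows, 20 in replicate 1 and 20 in replicates 2 and 3 were tested by Cochran-Mantel-Haenszel tests with Benjamini-Hochberg adjustment over all 1012 (Python 3.11.15, scipy 1.17.1). The test was tested on simulated data. Named mRNAs were the 12 highest lower and 12 lowest upper bounds of replicate 1 (30 rows there, 10 in each other library, at most 20% shared rows), class extremes and the 3′RACE-seq mRNAs. 1 mRNA under this rule is not reported here. Others were named after their values were seen. Members and lists were chosen with earlier results of these data known. Alternatives were other limits (40 and 60 As), other minima (30 and 100 rows), single reads, left-out libraries, other tests and, added after seeing the data, removal of loci with a run of As and of tails at the length limit.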

Additional observations from a re-analysis of the deposited data

How the results depend on the processing

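The library mean of 5.05% was 12.7% and the mRNA median of 5.08% was 13.7% when tails counted as long from 40 As. The calls in replicates 2 and 3, 21 above and 6 below, of which 13 and 5 lay on the same side in replicate 1, became 42, 26, 28 and 16 from 40 As. The calls below became 2 from 60 As, 3 without reads given to several genes, 34 in a beta-binomial likelihood ratio test and 3 without the loci with a run of As, of which 2, 2, 18 and 2 lay below in replicate 1. The overdispersion fitted in the beta-binomial test was 1.03e-05, at the lower end of the range searched. That test therefore allowed for almost no spread beyond counting error, and its 34 calls are not a check on such spread. With the test in replicate 1 the numbers were 72, 56, 20 and 22. Leaving out replicate 2 or 3 gave 11 to 16 above, 2 below, and 8 and 1 on the same side as in replicate 1. The mean Spearman's rho between libraries, 0.321, was 0.401 from 40 As, 0.310 from 60 As, 0.305 without reads given to several genes, 0.366 with 50 rows in each library and 0.296 without the loci with a run of As, and Pearson's r was 0.811. Odds changed direction for YCF37 from 60 As (0) and TRX-M4 without shared reads (0.980), and in replicate 1 for AT3G47070 (0.825), PRXR1 (0.957), AT2G03850 (0.736), XYL4 (0.479), AT3G60750 (0.891), GGP3 (0.165) and VSP1 (1.00). The cause was not tested. Leaving out each library in turn moved the library mean over 2.72 to 6.34%, the mRNA median over 1.33 to 5.97% and the uridylation difference over -10.0 to -8.19 percentage points. Of the alternatives for the main results, 48 stayed within the limit set for each and 31 moved. For shares this limit was the SD between libraries, which was wide. A library mean of 2.45% from 60 As and an mRNA median of 1.33% without replicate 1 thus counted as unmoved. No paired analysis was possible because the libraries form 1 group. In replicates 2 and 3 depth limited the detection of shares under those of the other mRNAs.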

Other observations

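A family of mRNAs for proteins with the domain DUF1216, picked after its values had been seen, had many long tails in replicate 1. AT3G28980 had 21 of 49 (42.9%) there, AT3G28820 22 of 63 (34.9%), AT3G28830 14 of 31 (45.2%), AT3G28780 29 of 113 (25.7%), AT3G28840 21 of 92 (22.8%) and AT5G61720 45 of 316 (14.2%). In replicates 2 and 3 each had 0 to 2 long tails per library, among at most 22 rows. AT3G28790 had 23 rows in all, of which 2 were long. A pair of mRNAs annotated as gamma interferon responsive lysosomal thiol (GILT) reductases were also seen to be high in replicate 1. AT4G12870 had 30 of 62 (48.4%) and GILT had 19 of 46 (41.3%), with 0 of 2 and 1 of 12, and 2 of 4 and 0 of 1, in replicates 2 and 3.

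Among loci under 50 rows with a genome-encoded run of As, EMB2771, with a run of 34 As in the gene, had 13 long tails of 16. AT4G39240, CHR17 and LCR11, with runs of 40, 37 and 36 As, had 1, 0 and 2 of 14 each. The kinase mRNA CKA3, with no run of 30 As, had 2 of 19 (10.5%) in replicate 1, 5 of 9 (55.6%) in replicate 2 and 14 of 26 (53.8%) in replicate 3, the reverse of the libraries, and 47.3% of its rows came from reads also given to other genes.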
